A study of Homo sapiens with 4 samples.

Results

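The 5′ UTR sites of coding mRNAs are the PAR-CLIP-seq sites of PRRC2B that the deposited annotation places in the 5′ untranslated region of a protein-coding gene, alone or together with another region label. PRRC2B is an RNA-binding protein of the cytosol, and PAR-CLIP-seq maps where such a protein touches RNA. The 4 samples came from HEK293T cells, a human embryonic kidney line, that overexpressed FLAG-tagged PRRC2B either at full length (labelled FL) or as the truncated fragment P2, which carries the RNA-binding part (labelled RBD), with 2 biological replicates of each. In both groups RNA was labelled with 4-thiouridine for 16 h, crosslinked at 312 nm, digested with RNase T1, which cuts after G, and pulled down through the tag with an anti-DYKDDDDK resin. The cells thus held PRRC2B sequence from the construct as well as from their own gene. The deposited data give 1 list of sites for the 2 replicates of each group, so no value below has a replicate error and no test has a culture as its unit. The FL list held 174 such sites among 894 distinct sites of all kinds, and the RBD list held 93 among 571. They were recorded under 179 genes with FL and 96 with RBD, 232 in all, of which 43 had a site in both lists.

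In the usual route of translation, the small ribosomal subunit joins an mRNA near its cap and moves along the 5′ UTR until it meets a start codon. An AUG that comes before the main one can start an upstream reading frame, and such frames, stable GC-rich structure and bound proteins are known features through which a 5′ UTR can alter how often the main start codon is used. Pyrimidine-rich and purine-rich stretches are common docking places for RNA-binding proteins. For these reasons the sites were described by gene, by position relative to the start codon, by composition and by the upstream reading frames they touch.

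The following stretches show the middle 30 nt of sites on CCND2 (cyclin D2, a partner of the kinases of the early cell cycle) and CRKL (an adaptor of tyrosine kinase signalling), which were among the mRNAs examined one by one in the study, and of the 10 tallest FL sites that were also found with RBD and matched no structural RNA. That of NSRP1 lies on a miRNA hairpin described below. Each is written 5′ to 3′ on the sense strand of hg38, and capitals mark the 15 nt richest in C and U.
CCND2, FL site, chr12:4273764-4273793, plus strand: agCGGAGAAGAGCGAGCaggggagagcgag
CCND2, RBD site, chr12:4273858-4273887, plus strand: aaUCCUCGCCUCCCUUCugcuccaccuucu
CRKL, FL site, chr22:20917705-20917734, plus strand: ugcauucccgggCGGCUCUCUCCGUGUggc
CRKL, RBD site, chr22:20917704-20917733, plus strand: gugcauucccgggCGGCUCUCUCCGUGUgg
ACTG1, FL site, chr17:81512750-81512779, minus strand: cucgcaCUCUGUUCUUCCGCCgcuccgccg
UBE2C, FL site, chr20:45812666-45812695, plus strand: agUUCCUGUCUCUCUGCcaacgccgcccgg
C1QBP, FL site, chr17:5439017-5439046, minus strand: cgugugCUGGGCUCCUCCGUCgccggccuc
DR1, FL site, chr1:93346437-93346466, plus strand: UUUCUUCCCAAACUCauccuaaaucucuca
IGF2BP1, FL site, chr17:48997541-48997570, plus strand: ggCUCUCCCCGAACUCUcccgcgaccucug
RPS15, FL site, chr19:1438853-1438882, plus strand: accgcggcguggaCCUCGACCAGCUGCUgg
RPL23A, FL site, chr17:28720816-28720845, plus strand: CUUCCGGCGGCCGAAgacacugcgacuccg
RPLP1, FL site, chr15:69452965-69452994, plus strand: agCUCGCCUGCAUCUACucggcccucauuc
NSRP1, FL site, chr17:30117127-30117156, plus strand: caaaagcucggucugAGGCCCCUCAGUCUU
PRRC2B, FL site, chr9:131430156-131430185, plus strand: UUUGGGGCAAAUUACcaagggcaaggaugg
Both kinds of stretch occurred. The richest 15 nt of ACTG1 and UBE2C held 86.7% C and U, while those in the middle of the CCND2 FL site held 20%, so that this stretch was made mostly of purines.

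Every site was 100 nt wide, and its height counts the reads, after removal of duplicates, that overlap at the peak, with no scaling to library size. The depth of each library is unknown here, so heights were tested only within a list. Heights of paired sites and their correlation across the lists are given below as description only. FL and RBD 5′ UTR sites alike had a median height of 6, and quartiles were 5 and 8 (FL) and 5 and 9 (RBD). Over all sites, 26.6% of the FL list and 29.1% of the RBD list reached a height of 10. The middle 25 nt of 156 of 174 FL sites and of 85 of 93 RBD sites occurred once in the genome.

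The tallest sites of the group lay on structural RNAs that sit next to, or inside, the annotated 5′ UTR. All 9 FL sites of height 25 to 89 overlapped a small nuclear or small nucleolar RNA gene on the same strand or matched mitochondrial ribosomal RNA. The site recorded under WDR74 had a height of 89 with FL and 57 with RBD, and all 100 nt of it fell inside RNU2-2P, a gene of the spliceosomal RNA U2. The site under C12orf57 reached 42 and 24 and held 62 nt of RNU7-1, the U7 RNA that serves the processing of histone mRNA ends. Small nucleolar RNAs, which guide the modification of ribosomal RNA, lay under the sites of RPL23A (SNORD42B, heights 45 and 29 with FL and RBD), RPL32 (SNORA7A, 35 and 20), HSPA8 (SNORD14C, 31 and 24), RACK1 (SNORD95, 29 and 20), RPL17 (SNORD58B, 28 and 25) and RPS3 (SNORD15A, 25 and 15). These snoRNAs are housed in introns of their host genes. The site under MTRNR2L8 (34 and 19) matched the mitochondrial ribosomal RNA MT-RNR2 at 98% identity, and its middle 25 nt had 5 copies in the genome.

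For 2 of the tallest of them, the middle 30 nt are shown, with the bases that lie inside the structural RNA gene in capitals.
WDR74 site on RNU2-2P, chr11:62841686-62841715, minus strand: AUGGAUUUUUGGAAAUAGGAGAUGGAAUAG
RPL23A site on SNORD42B, chr17:28720588-28720617, plus strand: UGAUGUCUUCAAAGGAACCACUGAUGCACc
Matches to structural RNAs numbered 10 with FL and 11 with RBD. All 10 of the FL sites were shared with RBD, and 10 of the 11 RBD sites were shared with FL. The exception was RABEP1, an RBD site of height 4 that resembled ribosomal RNA RNA28SN1. A further 3 FL and 2 RBD sites overlapped a miRNA hairpin. The NSRP1 site (heights 14 and 11) covered the 2 mature strands of miR-423. They are shown next with bases 2 to 8, the seed, in capitals, from RefSeq on GRCh38.
hsa-miR-423-5p: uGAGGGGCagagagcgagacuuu
hsa-miR-423-3p: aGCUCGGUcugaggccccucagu
The site recorded under HOXB3, HOXB4 and HOXB6 (10 and 7) lay on the hairpin of miR-10a, and the FL site of SBNO1 (height 5) overlapped the hairpin of miR-8072 but not its mature strand. Of these 13 FL and 13 RBD sites, 12 in each list had their middle in no exon of the representative transcript of the gene, which is the MANE Select transcript or else the Ensembl canonical one. Outside them the tallest FL site had a height of 20 and the tallest RBD site 15. Whether the reads came from the structural RNA or from the host mRNA was not tested, and results below are given with and without these sites where they differ.

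Sites of the 2 lists were shared when they overlapped by 1 nt or more on the same strand. Of the 174 FL sites, 43 were shared (24.7%, 95% Wilson interval 18.9 to 31.6), against 35.3% of all FL sites. Of the 93 RBD sites, 42 were shared (45.2%, interval 35.4 to 55.3), against 56% of all RBD sites. These intervals cover counting error only. Shared sites lay almost on top of each other, with a median shift of 3 nt between their starts, and 35 of the 43 FL sites overlapped their partner by 90 nt or more. The partner of an FL site carried a 5′ UTR label in 39 cases and a CDS label in 4. Without structural RNAs and miRNA hairpins, 31 of 161 FL sites (19.3%) and 30 of 80 RBD sites (37.5%) were shared.

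**Figure D1:**
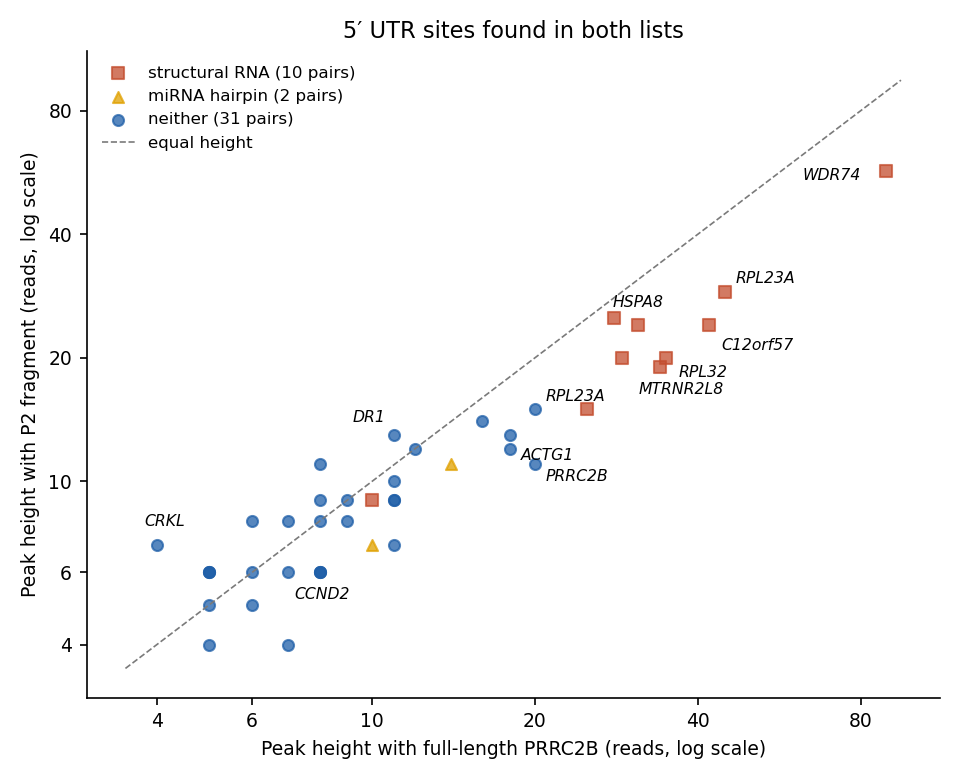
Peak height with P2 (vertical axis) against peak height with full-length PRRC2B (horizontal axis), both in reads on log scales, for the 43 FL sites that overlapped an RBD site. Squares are matches to structural RNAs, triangles miRNA hairpins and circles the other 31 pairs. The dashed line marks equal height in reads not scaled for depth, so the side of it on which a pair falls has no reading. Structural RNAs fill the upper right, with WDR74 at 89 and 57, and the other pairs stay at or below 20 with FL.

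The 31 shared FL sites outside structural RNAs and miRNA hairpins fell on actins, ribosomal proteins, cell cycle genes and others. ACTG1, which encodes cytoplasmic gamma-actin, had a site of height 18 with FL and 13 with RBD, with its middle at -37, where positions are in spliced nucleotides from the first base of the main start codon and negative ones lie upstream. ACTB, the beta-actin gene, had heights of 8 and 11, and its site held the start codon. Among ribosomal protein mRNAs, heights with FL and RBD were 20 and 15 for the second site of RPL23A, 18 and 12 for RPS15, 16 and 14 for RPLP1, 11 and 10 for RPL38, and 8 and 9 for RPS20. Ribosomal protein genes have many processed copies, and the middle 25 nt of the sites on RPL23A, RPLP1 and RPS20 had 3, 2 and 3 copies in the genome, so their reads are of less certain origin. UBE2C, the ubiquitin-conjugating enzyme of the anaphase-promoting complex, reached 12 in both lists, and CKS2, a subunit that binds cyclin-dependent kinases, 8 in both lists, with 2 copies of its middle 25 nt. CDKN2C, an inhibitor of cyclin D-dependent kinases, had 9 in both, on an exon that the representative transcript lacks.

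DR1, a repressor of transcription by RNA polymerase II, had 1 FL site of height 11 and 2 overlapping RBD sites of 13 and 6. Their middles lay at -195 with FL and at -193 and -142 with RBD, in a 5′ UTR of 739 nt. IGF2BP1, an mRNA-binding protein, had 11 and 9, with the FL site at -191. XRCC6, a subunit of the Ku DNA-repair heterodimer, had 11 and 7, and C1QBP, a protein of the mitochondrial matrix, 11 and 9. SRRT, which works with the nuclear cap-binding complex, had 9 and 8, and NPM1, the nucleolar chaperone nucleophosmin, 8 and 6. ATF3, a transcription factor of the stress response, had 6 in both lists, and DNAJA1, a co-chaperone, had 7 and 6. PRRC2B itself had 20 and 11 on a site that held its start codon, and there FL reads from the endogenous mRNA and from the construct cannot be told apart. P2 lacks the N-terminal part of the protein, so the RBD reads lay outside the PRRC2B sequence of that construct. Over the 43 pairs the heights in the lists had a Spearman rho of 0.91, and over the 31 pairs it was 0.82. The points of a list share its libraries, and expression of the mRNA was not measured here, so this is a description only.

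Shared sites were commoner among taller ones. Of FL sites of height 5 to 6, 8 of 82 were shared. The count was 11 of 42 at heights 7 to 9, 12 of 22 at heights 10 to 19 and 11 of 12 at 20 or more. In the RBD list, 10 of 41 sites of height 5 to 6 and all 7 sites of 20 or more were shared. Of the 12 FL sites of 20 or more, 9 were structural RNA matches, as were all 7 such RBD sites.

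The next comparison asked whether 5′ UTR sites differ from CDS and 3′ UTR sites of the same list in how often they are shared and how often they reach a height of 10. In the FL list 24.7% of 5′ UTR sites and 33.9% of 380 CDS sites were shared, a difference of -9.23 percentage points. For height the shares were 19.5% and 27.6%, a difference of -8.09 points. In the RBD list 45.2% of 5′ UTR sites and 54.7% of 245 CDS sites were shared (-9.53 points), and 20.4% and 31.8% reached a height of 10 (-11.4 points). None of the 4 differences passed, with adjusted p of 0.0900, 0.0900, 0.191 and 0.0900 (two-sided Fisher's exact test on sites, Benjamini-Hochberg over 8 comparisons). Against 3′ UTR sites, of which there were 152 in the FL and 87 in the RBD list, 5′ UTR sites reached a height of 10 more often by 9.01 points in FL and 10.1 points in RBD, with adjusted p of 0.0900 and 0.108 in Fisher's exact test. Their shared shares differed by 0.37 and 4.93 points, with adjusted p of 1 and 0.626 in the same exact test. Before adjustment, p was under 0.05 in 4 of the 8 comparisons.

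Which sites are counted set the result against CDS sites. Without structural RNAs and miRNA hairpins, the difference in shared sites from CDS sites was -15.0 points in FL and -17.4 in RBD, and that in height was -13.9 and -20.7, and all 4 passed (adjusted p = 0.00120, 0.0194, 0.00120 and 0.00120, Fisher's exact test). The CDS group held 28 FL and 29 RBD sites on the overexpressed PRRC2B mRNA. Leaving out PRRC2B alone, the 4 differences shrank to -4.42, -4.05, -2.80 and -3.12 points, with an adjusted p of 0.744 for each in the exact test. Leaving out PRRC2B, structural RNAs and miRNA hairpins together, the 4 differences were -10.2, -12.1, -8.65 and -12.7 points and none passed, with adjusted p from 0.0564 to 0.133 in the exact test. These settings were chosen after the data were seen. Sites of 1 gene are not independent, and with 1 site per gene, which also reduces the sites on PRRC2B, the 4 differences were -3.81, -3.08, -0.27 and -1.29 points, with an adjusted p of 1 for each in the exact test. At a height limit of 15 the height differences were -4.13 and -4.76 points, with adjusted p of 0.357 and 0.399 in the exact test. Against 3′ UTR sites, the height differences without structural RNAs and miRNA hairpins were 4.14 points in FL and 4.84 in RBD. Neither passed (adjusted p = 0.464 and 0.537, Fisher's exact test). These p-values compare sites within a list, not cultures.

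**Figure D2:**
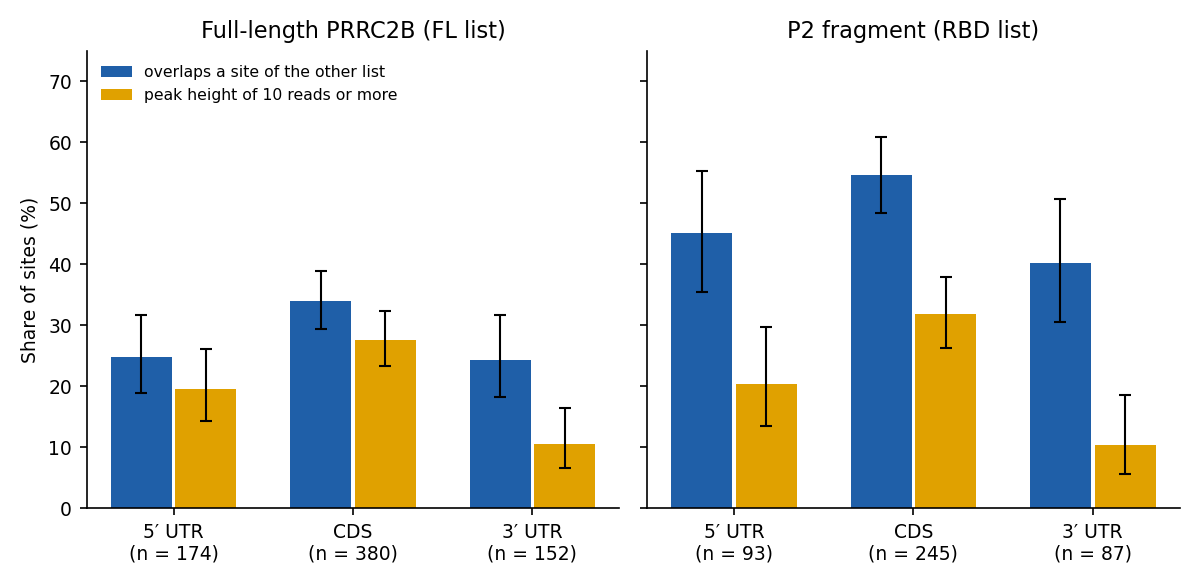
Share of sites, in percent, that overlap a site of the other list (blue) or reach a peak height of 10 reads (yellow), for 5′ UTR, CDS and 3′ UTR sites of the FL list (left) and the RBD list (right), with all sites included. Bars start at 0, error bars are 95% Wilson intervals, and 5′ UTR sites lie between CDS and 3′ UTR sites in height, at 19.5% and 20.4%.

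Sites found in a single list were mostly low, and the tallest of them with FL were rich in C and U. The 131 unshared FL sites included 11 of height 10 or more, and the 51 unshared RBD sites included 2. Among the tallest FL-only sites were those on POLR2A, the large subunit of RNA polymerase II (height 20), BCL11A, a zinc finger transcription factor (16), UBE2D2, a ubiquitin-conjugating enzyme (16), and HNRNPA0, an RNA-binding protein (12). The tallest RBD-only sites were on C9orf40 (10), PPDPF (10), AKIRIN2, a factor in the nuclear import of proteasomes (8), IP6K2, an inositol hexakisphosphate kinase (8), and DCLRE1B, a nuclease that acts at telomeres (7). The stretch of 15 nt richest in C and U within each of these sites is shown in capitals, with its flanks.
POLR2A, FL, chr17:7484479-7484508, plus strand: uucguuaCCCUUUUUCUUCUUCcuccccca
BCL11A, FL, chr2:60553536-60553565, minus strand: uuuuucaUCUCUCUCUCUCUCUcucccucu
HNRNPA0, FL, chr5:137754236-137754265, minus strand: ggcaccgCUCCCCUUCCCUCCCccuuccuc
UBE2D2, FL, chr5:139561666-139561695, plus strand: uccucaaCUCUCCAUCUUCUCCugccgacc
IP6K2, RBD, chr3:48695303-48695332, minus strand: uccgcugCCUCCCCCAUCUCCCcgccaucu
DCLRE1B, RBD, chr1:113905406-113905435, plus strand: agggugaCUUCCUUUUUCUGCCcacucugg
C9orf40, RBD, chr9:74952717-74952746, minus strand: uccagcgUCCUGUCGCCUCCUCgcccgacu
PPDPF, RBD, chr20:63520789-63520818, plus strand: ggcgcggCUUCCCGCGGUCUUCucugcaaa
AKIRIN2, RBD, chr6:87701824-87701853, minus strand: ggcggcaGCGGCUCUCCUUUCCacagccgg
POLR2A, BCL11A and HNRNPA0 held 15 nt with no purine at all, whereas the RBD-only sites shown held 80% to 93.3% C and U in their best stretch.

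A run of 15 nt made only of C and U was present in 21 of 174 FL sites (12.1%) and 5 of 93 RBD sites (5.38%). The same measure was 3.42% and 3.27% for CDS sites and 6.58% and 12.6% for 3′ UTR sites of the FL and RBD lists. Of the 21 FL sites, 20 were unshared, against 131 of all 174 FL sites. Their middle lay in the 5′ UTR of the representative transcript in 19, against 92 of all 174. The 5 with such a run among unshared FL sites of height 10 or more were POLR2A, BCL11A, TXNIP (height 12), HNRNPA0 and CCNI (cyclin I, height 10). Both FL sites of ARF4, a small GTPase of the Golgi, held such a run, at heights of 9 and 7. Lower FL sites with such a run included PTGES3, a co-chaperone of the heat shock system (7), and STIM1, a calcium sensor (4). With RBD such runs lay on SCD, a fatty acid desaturase (7), UNG, a DNA repair glycosylase (6), HIF1A, the oxygen-regulated transcription factor (5), and RTN3 (5), all unshared. The 1 shared site with such a run in either list was that recorded under MTPN and LUZP6, with heights of 7 and 8. A run of 15 nt made only of G and A was rarer. It was present in the FL sites of RBM39, TSC22D2 and TCEAL4 and in the RBD site of SETD4, of which the TCEAL4 site was shared. The contrast in pyrimidine runs was noticed in these data and was not tested.

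The region labels did not all hold for the main transcript of a gene. Of the 174 FL sites, 93 carried the 5′ UTR label alone, 75 carried CDS as well and 6 all 3 labels, and for RBD the counts were 57, 34 and 2. On the representative transcript of GENCODE release 44, the middle of the site fell in the 5′ UTR for 92 FL and 51 RBD sites, in the CDS for 53 and 24, and in the 3′ UTR for 0 and 1. For the remaining 29 and 17 sites it fell in no exon, or the gene had no such transcript. Outside structural RNAs and miRNA hairpins these were 17 FL and 5 RBD sites, of which 11 and 2 lay in the 5′ UTR of another coding transcript of the gene. Sites with the middle in the 5′ UTR were shared in 16 of 92 cases with FL (17.4%, Wilson interval 11.0 to 26.4) and 17 of 51 with RBD (33.3%, interval 22.0 to 47.0). Sites with the middle in the CDS were shared in 13 of 53 (24.5%, interval 14.9 to 37.6) and 10 of 24 (41.7%, interval 24.5 to 61.2), intervals that overlap those of the 5′ UTR.

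Position was measured from the middle of the site to the first base of the main start codon, in spliced nucleotides, for the 145 FL and 76 RBD sites that lay on the representative transcript. The median position was -45 with FL (95% interval of the median -69 to -25) and -67.5 with RBD (interval -100 to -29). These intervals overlap, and the difference was not tested. With FL 66 of 145 sites (45.5%, Wilson interval 37.6 to 53.6) and with RBD 37 of 76 (48.7%, interval 37.8 to 59.7) lay within 100 nt of the start codon on either side. The start codon itself was inside 36 FL and 20 RBD sites, among them those of PRRC2B, RPLP1, UBE2C, XRCC6, C1QBP, ACTB, CKS2 and COTL1 in FL, and 10 of the 36 and 8 of the 20 were shared. A further 26 FL and 11 RBD sites lay more than 100 nt after the start codon, so that on this transcript they did not reach the 5′ UTR. The site of SNRNP200, a spliceosomal helicase, lay at 4468 with FL and that of ANKHD1 at 4453.

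The distance depends on which transcripts and labels are taken. Sites labelled 5′ UTR alone had medians of -163 with FL and -120 with RBD. For the 92 FL and 51 RBD sites whose middle was in the 5′ UTR of the representative transcript, medians were -132 and -108. These sites lay 118 and 127 nt from the start of the transcript (medians), and the median site was at 52.3% and 52.0% of the length of its 5′ UTR. With FL 49 of 92 and with RBD 26 of 51 lay nearer to the start codon than to the transcript start.

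Sites were counted by distance upstream of the start codon, among those whose 5′ UTR reached at least the near edge of the bin. Among FL sites, 22 of the 92 5′ UTRs had the site 1 to 50 nt upstream of the start codon. For 51 to 100 nt the count was 17 of the 91 that reach so far, for 101 to 150 nt 15 of 84, and for 151 to 200 nt 10 of 70. In the wider bin of 201 to 300 nt it was 12 of 64. Farther upstream, over a span that differs between 5′ UTRs, it was 16 of 44. With RBD the counts in the same bins were 11 of 51, 12 of 50, 13 of 43, 7 of 38, 3 of 32 and 5 of 20. These are counts of sites, since the 51 RBD sites lay on 49 transcripts. The order of these shares was not tested. A site is 100 nt wide, so the nearest bin and its neighbour cannot be told apart for a contact anywhere inside it.

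**Figure D3:**
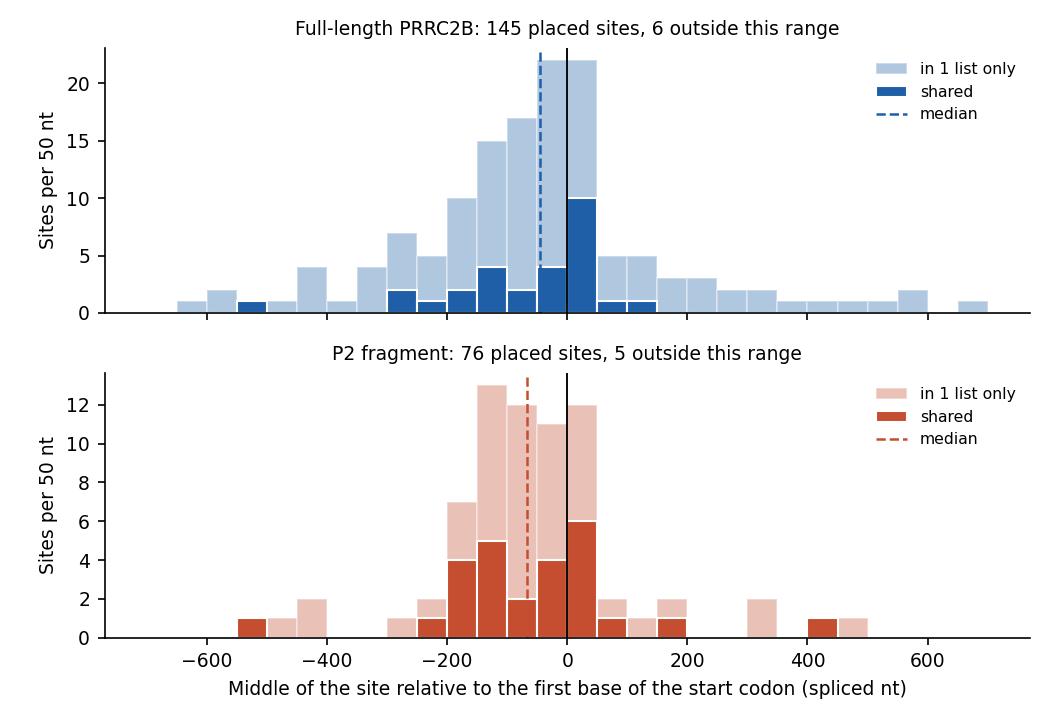
Number of sites per 50 nt against the position of the middle of the site relative to the first base of the main start codon, in spliced nucleotides (negative is upstream), for the 145 FL sites (upper) and 76 RBD sites (lower) on a representative transcript. Dark bars are shared sites, light bars those in 1 list, the solid line is the start codon and the dashed line the median, at -45 and -67.5, and sites beyond 700 nt are left out of the plot.

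5′ UTR sites were richer in G and C than sites elsewhere in mRNAs. The median GC content was 62% with FL (interval of the median 59 to 65) and 64% with RBD (62 to 67), with extremes of 30% and 83% in the FL list. CDS sites had medians of 55% and 3′ UTR sites of 49% in both lists. The rest of the same 5′ UTRs had a similar content. For 74 FL sites whose 5′ UTR had 50 nt or more outside the site, the part inside the site had a median GC of 67.8% and the rest of the same 5′ UTR 68.5%. The site was lower in 44 and higher in 30 of them, with a median difference of -1.71 points. With RBD the medians were 73.0% inside and 70.5% outside over 38 sites, of which 21 were lower inside and 17 higher. The lowest GC content, 30%, belonged to PSME3IP1, followed by the NAP1L1 sites at 33% and 34%. BCL11A at 37%, POLR2A at 40% and TXNIP at 40% were also low, and these and PSME3IP1 were FL-only sites with a run of 15 C and U. The highest, 83%, was reached by GCLM, a subunit of the enzyme that starts glutathione synthesis, with FL and by YY1, a zinc finger transcription factor, with RBD.

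**Figure D4:**
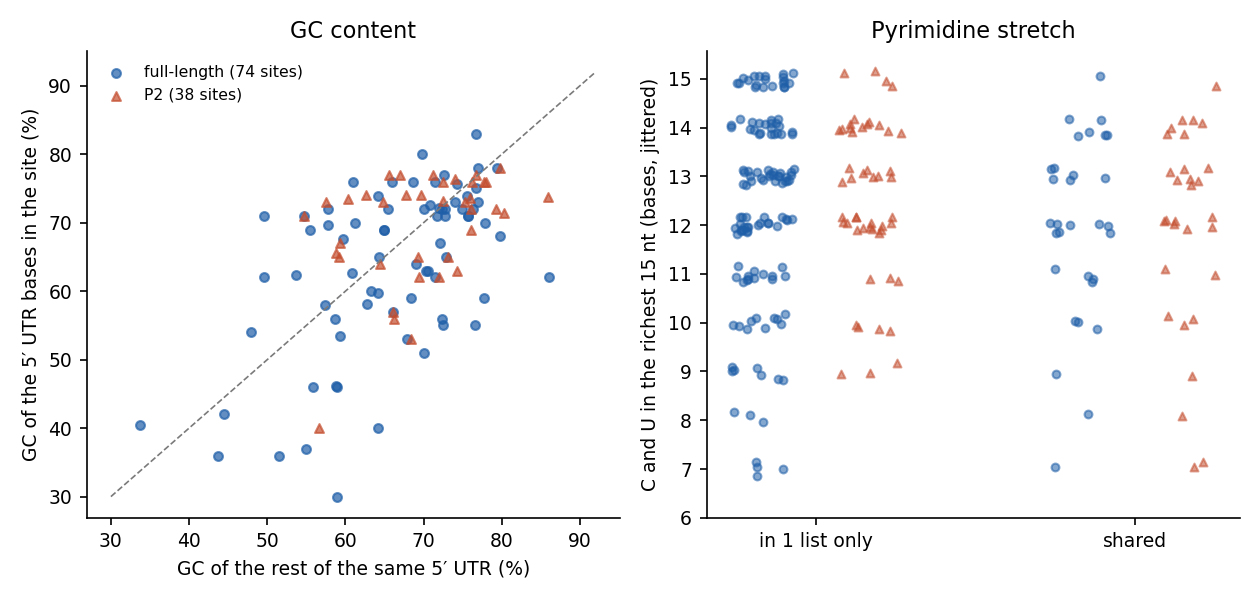
Left: GC content of the 5′ UTR bases inside a site (vertical, percent) against that of the rest of the same 5′ UTR (horizontal, percent), for 74 FL sites (circles) and 38 RBD sites (triangles), with equality dashed; points scatter on both sides. Right: number of C and U in the richest 15 nt of each site outside structural RNAs and miRNA hairpins, jittered, for sites in 1 list and shared sites. With FL the top row, 15 of 15, holds 20 of 130 unshared sites and 1 of 31 shared ones.

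Upstream reading frames were counted on the same transcripts. A frame was an AUG upstream of the main start codon followed in frame by a stop, either inside the 5′ UTR or out of frame within the CDS. Of the 142 transcripts with a placed FL site, 59 had such a frame (41.5%, Wilson interval 33.8 to 49.8), and of the 74 with a placed RBD site 28 (37.8%, interval 27.6 to 49.2). Over all 19061 MANE Select transcripts the share was 40.97%. Among the 125 transcripts, from either list, with the middle of a site in the 5′ UTR it was 51.2%, but these 5′ UTRs were long, with a median of 279 nt against 133 nt for all MANE Select transcripts. Their density of upstream AUGs was 3.92 per 1000 nt, against 5.96 for all MANE Select transcripts and 4.19 for the 418 transcripts of genes with a CDS site and no 5′ UTR site. The last group had a median 5′ UTR of 122.5 nt, and 34.2% of it had a frame. These shares are not adjusted for length or expression and were not tested.

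**Figure D5:**
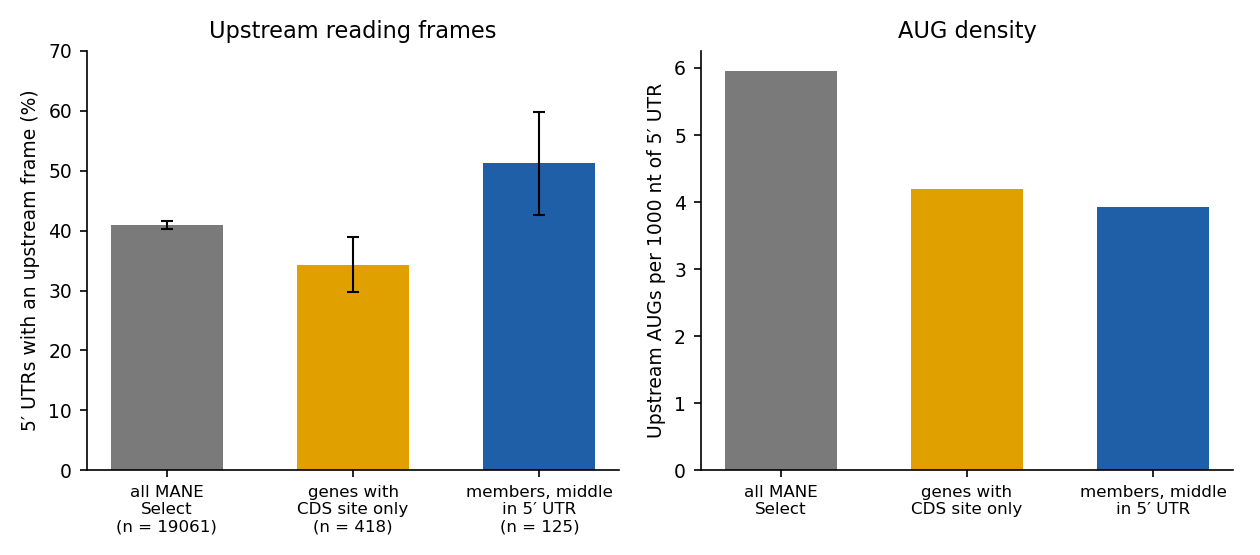
Left: share of 5′ UTRs with at least 1 upstream reading frame, in percent with 95% Wilson intervals, for all MANE Select transcripts (n = 19061), transcripts of genes with a CDS site and no 5′ UTR site (n = 418) and transcripts with the middle of a site in the 5′ UTR (n = 125). Right: upstream AUGs per 1000 nt of 5′ UTR in the same groups; the third group has the highest share, 51.2%, and the lowest density, 3.92.

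A minority of all placed sites touched a frame, and the share depended on which sites were counted. With FL 16 of 145 placed sites overlapped 1 (11.0%, Wilson interval 6.91 to 17.2), and with RBD 16 of 76 did (21.1%, interval 13.4 to 31.5). The difference between the lists was not tested, since they share genes. Restricted to sites with the middle in a 5′ UTR that has a frame, the counts were 15 of 47 and 14 of 24. Sites with an upstream AUG inside them numbered 10 in each list. The longest frame touched by each FL site had 4 to 75 codons with a median of 23, not counting the stop codon. With RBD it had 1 to 58 codons with a median of 23.5.

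CRKL, CSNK1G3 and PRRC2B had a frame touched in both lists. In CRKL it was the only frame of the 5′ UTR and had 15 codons. In CSNK1G3, a casein kinase, the 5′ UTR of 641 nt held 10 frames, and the site lay at -510 with FL (height 7) and at -514 with RBD (height 4). PRRC2B had a single frame of 29 codons. Among FL-only sites, the longest frame, of 75 codons, was in NUP50, a nuclear pore protein (height 6), and the site of ZNF146 (height 6) lay in a 5′ UTR of 1019 nt with 18 frames. BACE1, the beta-secretase (height 5), BMPR2, a receptor of bone morphogenetic proteins (5), NF2, the tumour suppressor merlin (6), CD46, a complement regulator (5), and PRPF4B, a splicing kinase (5), were also in this group. With RBD, EGLN1, an oxygen-sensing prolyl hydroxylase, had 2 sites of heights 6 and 5 on frames, in a 5′ UTR of 399 nt with 3 of them. PPDPF (height 10, a frame of 5 codons), DCLRE1B (7, 24 codons) and SMURF2, a ubiquitin ligase (6, 29 codons), had RBD-only sites on frames, while SUCO (6, 13 codons) and XRCC6 (7, 17 codons) had shared sites that touched a frame with RBD but not with FL.

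CCND2 and CRKL show how far a shared site can differ. For CCND2, heights were 8 at the FL site, chr12:4273729-4273828, and 6 at the RBD site, chr12:4273823-4273922. They overlapped by 6 nt, so their pairing ends when an overlap of 50 nt is required. The middles of both lay in the 5′ UTR, which is 279 nt long and has no upstream frame, at -263 and -169. Of the FL site, 67 nt fell in the annotated transcript and the rest upstream of its start, while all 100 nt of the RBD site were exonic. The stretches printed above show purines in the middle 30 nt of the FL site, where no run of 15 nt exceeded 20% C and U, and pyrimidines in that of the RBD site, at 93.3%. Over all 100 nt of the FL site the richest 15 nt held 73.3% C and U. The sites of CRKL, chr22:20917670-20917769 with FL and chr22:20917669-20917768 with RBD, overlapped by 99 nt, with heights of 4 and 7 and middles at -216 and -217 in a 5′ UTR of 528 nt. Their GC content was 76% and 77%.

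Gene families were read against all 851 genes with an exonic site in either list, of which 232 (27.3%) had a 5′ UTR site. Of 32 cytosolic ribosomal protein genes with an exonic site, 11 had one in the 5′ UTR (34.4%), and for RPL17, RPL32 and RPS3 it was only the snoRNA match. RPL36, recorded with HSD11B1L, had an FL-only site of height 11, and RPS15A, recorded with ARL6IP1, an RBD-only site of 6. Translation factors had 3 of 16, namely EIF2B5, a subunit of the exchange factor of the initiator complex (5 and 6), EIF5, which acts in start codon recognition (FL-only, 9), and PABPC1, the poly(A)-binding protein (FL-only, 6). Cyclins, their kinases and inhibitors had 4 of 8: CCND2, CCNI, CDKN2C and CDK13, a kinase of transcription elongation (FL-only, 5). A list of RNA-binding and splicing proteins chosen by the start of their symbols (such as HNRNP, SRSF, DDX, RBM and ELAVL), which leaves out IGF2BP1, had 8 of 26. FL sites were on HNRNPA0 (12), RBM39 (8), SRSF3 (8) and RBM23 (6), and RBD sites on HNRNPC (7), HNRNPDL (7), ELAVL1 (6) and DDX46 (4), where the HNRNPDL site overlapped an FL site labelled CDS.

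Of 13 chaperone genes with an exonic site, DNAJA1 and HSPA8 had one labelled 5′ UTR, and that of HSPA8 was the snoRNA match. Zinc finger genes named ZNF had 3 of 9, with FL sites on ZNF574 (8), ZNF146 (6) and ZNF207 (6). The 9 histone genes with an exonic site had none. In the list of genes known for control by upstream frames, to which ATF4 and PPP1R15A belong, 3 had an exonic site and none had it in the 5′ UTR. PRRC2B was the 1 member of its family with such a site, of 2 with an exonic site. The families were not tested as sets, and a family with few bound genes allows no reading of its share.

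Several genes had more than 1 site recorded under them in a list. NAP1L1, a histone chaperone, had FL sites of heights 11 and 7 at 76 and 388, in its CDS. COX5A, a subunit of cytochrome c oxidase, had overlapping FL sites of 6 and 5, with middles at -34 and 18. ARF4 had FL sites of 9 and 7, at -140 and 19. RPL23A had the snoRNA match and a site in the CDS in both lists. FL sites of 6 and 5 were recorded under BOLA2, BOLA2B and NPIPB12 together, at separate places on chromosome 16. Neither had its middle in an exon of the representative transcript or in the 5′ UTR of another coding transcript of these genes. The middle 25 nt of each site occurred once in the genome. Whether the reads came from these genes was not tested, and the gene labels are uncertain.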

How the data were processed

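Labels give HEK293T cells with overexpressed FLAG-tagged PRRC2B, full-length (FL) or truncated (RBD), 2 biological replicates each, fragments of 19 to 35 nt and single reads of 75 nt. Per the study's methods, the authors trimmed reads, removed identical sequences, aligned them to hg38 with bowtie, allowing 1 mismatch and keeping the best stratum, and used the CLIP Tool Kit to call peaks. Each group has 1 deposited list, and neither how its replicates were combined nor how ties within the best stratum were resolved is given in the sources used here. The submitters' processing notes name cutadapt, Bowtie 1.2.1.1 and bedtools 2.30.0. The deposited signal is the peak height in reads, not scaled for depth. The deposited BED files were not used.

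Records of the same position and strand were merged into 1 site, and starts were converted to 1-based. Members, gene lists and alternatives were chosen with earlier results of these data known. Named genes were the 10 tallest shared FL sites, the 5 tallest unshared sites of each list (ties by symbol), CCND2, CRKL, members of the gene lists and genes with several sites, and others are named as examples after their values were seen. Some sites that this rule names are not reported here. Sequences, transcripts and frames came from hg38 and GENCODE release 44. Structural RNAs were annotated genes overlapping by 20 nt or more, or BLAST 2.17.0 matches to 3477 sequences of 20 nt or more in the middle 30 nt at 90% identity. Region classes were compared by two-sided Fisher's exact test (scipy 1.17.1) with Benjamini-Hochberg adjustment over 8 comparisons, and intervals are 95%. Overlap, frame finding and tests were tested on simulated data. Python 3.11.15, pandas 2.3.3, pysam 0.24.0 and samtools 1.23.1 were used.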

Additional observations from a re-analysis of the deposited data

How the results depend on the processing

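No paired analysis was possible because each group has 1 deposited list for its replicates, and for the same reason no replicate could be left out. With p of at most 0.001, the FL list kept 110 of its 5′ UTR sites and the RBD list 62. Sites labelled 5′ UTR alone numbered 93 with FL and 57 with RBD. Shared shares rose to 52.9% (FL) and 89.5% (RBD) at heights of 10 or more and were 17.4% and 33.3% for sites with the middle in the representative 5′ UTR. Differences from CDS sites, in points, FL then RBD, were as follows. Without structural RNAs they were -14.1 and -15.9 for shared sites and -12.95 and -19.8 for height. Without miRNA hairpins as well they were -15.0, -17.4, -13.9 and -20.7. With the middle in the 5′ UTR they were -16.6, -21.4, -15.7 and -22.0. All 12 passed at adjusted p under 0.05 in Fisher's exact test, and leaving out PRRC2B alone gave -4.42, -4.05, -2.80 and -3.12 (adjusted p = 0.744). With 1 site per gene they were -3.81, -3.08, -0.27 and -1.29 (adjusted p = 1 each, same exact test), and at a height limit of 15 the height differences were -4.13 and -4.76, which did not pass. Against 3′ UTR sites, the FL height difference at a limit of 15 was 8.37 points and passed in Fisher's exact test (adjusted p = 0.0200). That setting kept the sites on structural RNAs. At the limit of 10, the FL height difference was 4.14 points without structural RNAs and miRNA hairpins (adjusted p = 0.464, same exact test). It was 1.43 points with the middle in the 5′ UTR. The small FL difference in shared sites turned to -1.65 without structural RNAs, -2.51 without miRNA hairpins as well, -0.32 with 1 site per gene, -0.70 at an overlap of 50 nt and -6.95 with the middle in the 5′ UTR. With RBD it turned to -0.96 and -6.90 in the second and last of these, and the height difference to -0.54 in the last. None of these reversals passed. Taking any coding transcript with the site in its 5′ UTR gave median distances of -179 (FL) and -138 (RBD), 31.0% and 32.4% within 100 nt, 72.4% and 69.1% with a frame and 37.2% and 42.3% of sites on one. Labels of 5′ UTR alone gave distances of -163 and -120. The longest transcript gave 54.9% and 49.3% with a frame and, with FL, 19.7% of sites on one. Within 50 nt of the start codon lay 30.3% and 30.3%, and within 200 nt 68.3% and 78.9%. Median GC was 66.5% and 71% for sites with the middle in the 5′ UTR and 69% for RBD sites labelled 5′ UTR alone. Frames were present in 27.5% of FL transcripts at 10 codons or more and in 51.1% of those with the middle of the site in the 5′ UTR. The causes of these shifts were not tested beyond what each setting leaves out. Of the 140 alternatives, 90 kept direction and call or stayed within the interval of the value reported. Numbers of sites have no interval and were counted among these when within 1.5-fold. The settings without miRNA hairpins, without PRRC2B and by placement were added after seeing the data. Low heights limit what can be seen: sites of 4 to 6 reads make up most of the 5′ UTR sites of both lists.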
